A study of Mus musculus with 48 samples.

Results

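Newly made RNA of the Bmal1 knockdown line was compared between a late and an early window after serum. The cells were NIH 3T3, an immortalised line of mouse embryonic fibroblasts, carrying a short hairpin RNA against Bmal1 (shBmal1) or a control hairpin (shCTRL); each hairpin was represented by 1 line. Both lines were synchronised with a pulse of concentrated horse serum, and RNA was collected every 2 h from 24 to 46 h, with 1 library per line, assay and time point. RNA labelled with 4-thiouridine (4sU), a nucleoside taken up into RNA as it is made, was biotinylated and pulled down, and the rest was kept as total RNA; for this pull-down a larger share of the RNA was used from shBmal1 than from shCTRL. The comparison used 8 of the 48 libraries, the shBmal1 4sU libraries at 40, 42, 44 and 46 h (late) and at 24, 26, 28 and 30 h (early), and 10260 of the 11313 genes in the intron table, those with a mean intron RPKM of at least 0.1 over the 8 libraries. RPKM, reads scaled to feature length and library size, is a level per length. The 4 libraries of a window are 4 time points from 1 series, so change within a window counts as spread, the p-values measure the spread between single libraries, and time after serum cannot be told apart from the age of the culture.

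Introns are removed soon after they are transcribed, so intron reads in labelled RNA follow synthesis more closely than exon reads, which also carry finished mRNA. Serum restarts the cell cycle in resting fibroblasts and aligns their circadian clocks. Genes for DNA replication are transcribed mainly around the start of S phase, under E2F factors, and genes for mitosis in G2 and M phase, under the DREAM and MMB complexes with B-Myb and FOXM1, which act at a promoter element named the cell cycle homology region and at CCAAT boxes bound by NF-Y. Bmal1, listed under the name Arntl, pairs with Clock to drive the Per, Cry and Nr1d genes.

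The 8 libraries held 11916454 to 15126706 intron reads each in genes whose reads could be recovered from the steps of the RPKM values. The 5 genes with the most signal (CT010467.2, Ccdc107, Vim, Gm10275 and Actb) held 39.3% to 55.3% of the summed intron RPKM early and 43.7% to 56.1% late, so levels were scaled by the median ratio over genes. After scaling, the leading principal component (35.8% of the variance) ran from -31.9 at 34 h to 22.3 at 24 h and did not separate the windows; the next (20%) was -15.9 to -7.57 early and 6.44 to 22.2 late. The targeted gene, Arntl, had a median total exon level of 3.96 RPKM over the 12 shBmal1 libraries (2.25 to 4.72) against 8.76 over the 12 shCTRL libraries (1.33 to 17.4), and the ranges overlapped. Of 12 fibroblast markers 9 were in the table, and their summed 4sU exon level was 2240 to 2580 RPKM early and 2340 to 2550 late. The leukocyte list (4 of 11 in the table, without Ptprc, Adgre1 or Itgam) summed to 17.5 to 20.3 RPKM early and 14.4 to 17.4 late, and the adipocyte list (2 of 9) to 4.98 to 6.33 early and 7.01 to 9.36 late. Endothelial (2 of 9 markers), epithelial (1 of 9), muscle (2 of 9) and neural (1 of 9) sums stayed at or under 7.53 RPKM in each library, and the part of any of these in the results was not tested.

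Late in the series the synthesis of 398 genes was lower and that of 138 was higher than early (3.88% and 1.35% of the genes tested; limma, adjusted p under 0.05), and the median change over all genes was 0.01 on the log2 scale. The falls were also larger. A change of at least 2-fold was found in 49 of the genes that fell and 6 of those that rose, and the median log2 change was -0.62 for the former and 0.48 for the latter. The 4 late libraries lay below all 4 early ones in 831 genes (8.1%) and above them in 548 (5.34%). Leaving out 1 library left 267 to 359 lower calls, while the higher calls dropped to 58 without 26 h, 67 without 42 h, 70 without 44 h and 62 without 46 h. On the RPKM as deposited, 478 genes were called lower and 88 higher. The libraries at 32 to 38 h took no part in the difference but did enter the spread behind the p-values. Their mean lay between those of the early and late windows in 389 of the 398 lower genes (97.7%) and in 138 of the 138 higher genes. The median position was 0.457 and 0.464 of the way from early to late. In genes picked for windows far apart such a place is likely in advance, and the share over all genes was not taken.

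The fall was led by mitotic genes. All 28 tested genes of the G2/M and mitosis list were lower late, with a median log2 change of -0.98 (-1.2 to -0.59). In all 28 the late libraries lay below the early ones. Of all genes, 3.88% were called lower and 8.1% had late libraries below all early ones. Of the 12 genes with the largest falls that met the naming rule, Ccnb1, Birc5, Aurkb, Tacc3, Ckap2, Ube2c, Plk1 and Kif20b are known to act in mitosis; Tacc3, Ckap2 and Kif20b are not on the list. Sequences before the start sites of some genes that fell are printed here, and these genes were picked after the matches were seen. They are the 150 bases before the start on the gene's strand, from RefSeq on GRCm38.p6. Capitals mark TTTGAA, the core letters of the cell cycle homology region, and CCAAT, the NF-Y box, or their reverse complements TTCAAA and ATTGG. Only these exact letters were searched, so a lack of them is not a lack of the element. Of the genes of cell division, 5 hold at least 1 of the 2 strings (Ccnb1, Cdk1, Ube2c, Ckap2 and Mki67) and 1 holds neither (Birc5). The other 2 are replication genes taken up later (Mcm5 and Rrm1). Ccnb1 holds CCAAT only, as do Mcm5 and Rrm1.
Ccnb1, chr13:100786487-100786636, minus strand: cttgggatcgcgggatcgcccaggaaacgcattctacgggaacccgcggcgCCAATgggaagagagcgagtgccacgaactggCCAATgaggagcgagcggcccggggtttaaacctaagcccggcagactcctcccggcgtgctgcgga
Cdk1, chr10:69352913-69353062, minus strand: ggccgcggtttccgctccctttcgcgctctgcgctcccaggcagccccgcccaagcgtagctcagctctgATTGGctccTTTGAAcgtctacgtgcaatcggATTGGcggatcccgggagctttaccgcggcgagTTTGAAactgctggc
Ube2c, chr2:164769779-164769928, plus strand: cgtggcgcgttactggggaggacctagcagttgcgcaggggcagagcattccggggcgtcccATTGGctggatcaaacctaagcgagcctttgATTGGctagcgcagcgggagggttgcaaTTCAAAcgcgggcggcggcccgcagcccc
Ckap2, chr8:22185820-22185969, minus strand: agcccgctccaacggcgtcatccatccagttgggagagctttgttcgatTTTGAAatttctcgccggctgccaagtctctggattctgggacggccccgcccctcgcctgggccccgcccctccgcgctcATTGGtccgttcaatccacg
Mki67, chr7:135716380-135716529, minus strand: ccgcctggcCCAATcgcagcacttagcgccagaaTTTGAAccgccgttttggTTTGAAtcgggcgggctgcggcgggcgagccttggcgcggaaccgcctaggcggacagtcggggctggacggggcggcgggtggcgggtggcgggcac
Birc5, chr11:117849087-117849236, plus strand: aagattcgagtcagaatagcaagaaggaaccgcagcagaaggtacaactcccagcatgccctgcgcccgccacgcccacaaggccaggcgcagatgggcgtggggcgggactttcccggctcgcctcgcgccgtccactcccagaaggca
Mcm5, chr8:75109359-75109508, plus strand: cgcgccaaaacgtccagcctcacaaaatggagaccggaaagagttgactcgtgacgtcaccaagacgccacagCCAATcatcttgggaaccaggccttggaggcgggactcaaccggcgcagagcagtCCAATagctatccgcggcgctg
Rrm1, chr7:102441545-102441694, plus strand: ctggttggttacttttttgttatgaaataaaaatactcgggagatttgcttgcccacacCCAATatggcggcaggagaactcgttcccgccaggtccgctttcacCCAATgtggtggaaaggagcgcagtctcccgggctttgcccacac

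The element that begins nearest the start site was a TTTGAA 15 bases before it in Cdk1, with a pair of CCAAT boxes 48 and 80 bases before it on the other strand. In Ube2c the TTTGAA began 29 bases before the start and the CCAAT boxes 57 and 88 bases before it. Ccnb1 held CCAAT boxes at 67 and 99 bases and no TTTGAA in its whole promoter window, and Birc5 held neither. Over all tested genes with a RefSeq promoter (7892 of 10260; 250 bases before to 50 after the start, either strand), TTTGAA was present in 11.6% and CCAAT in 39.6%. In the G2/M list TTTGAA was present in 18 of 23 promoters (78.3%), CCAAT in 20 of 23 (87.0%) and both in 73.9%, against 4.92% with both over all genes. Among all genes that fell, TTTGAA was present in 100 of 326 promoters (30.7%) and CCAAT in 53.7%; with the members of the G1/S and G2/M lists left out, TTTGAA was still in 81 of 288 (28.1%) and CCAAT in 50.0%. Among genes that rose the shares were 7.84% and 31.4%. The E-box CACGTG, the element bound by Bmal1 and Clock, was in 11.1% of all promoters, 7.98% of those of genes that fell and 3.92% of those of genes that rose. The D-box TTATGTAA (0.482%, 0.613% and 0.98% in the same order), the ROR element AGGTCA (11.2%, 9.82% and 8.82%), the CRE TGACGTCA (3.48%, 3.99% and 1.96%) and the AP-1 site TGAGTCA (3.40%, 2.76% and 2.94%) are given as shares only. A match of letters is a description of the sequence and not a site, and no test was made on these shares.

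Ccnb1 encodes cyclin B1, the partner of Cdk1 that drives entry into mitosis. Its scaled intron level in shBmal1 was 1.91, 1.83, 1.58 and 1.53 RPKM at 24, 26, 28 and 30 h and 0.848, 0.880, 0.676 and 0.612 RPKM at 40, 42, 44 and 46 h. Every late library was far below every early one, a 2.25-fold fall (log2 change -1.17 ± 0.13 SE, limma adjusted p = 0.000184). Cdk1, the mitotic kinase itself, chosen after its values were seen, went from 7.25, 6.40, 6.52 and 5.76 RPKM to 3.25, 3.31, 3.20 and 2.81 RPKM. The windows were apart and the late levels were nearly even, a 2.05-fold fall (-1.04 ± 0.11, adjusted p = 0.000184). Birc5, survivin, a member of the chromosomal passenger complex, was at 2.49, 2.34, 2.50 and 2.18 RPKM early and at 1.22, 1.02, 1.03 and 0.843 RPKM late. Its fall was 2.30-fold, with no overlap (-1.2 ± 0.11, adjusted p = 0.000121). Aurkb, the kinase of the same complex, was at 2.45, 2.21, 1.78 and 1.88 RPKM and then at 1.05, 0.891, 0.961 and 0.722 RPKM, with the lowest library at 46 h (-1.18 ± 0.14, adjusted p = 0.000296).

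**Figure D1:**
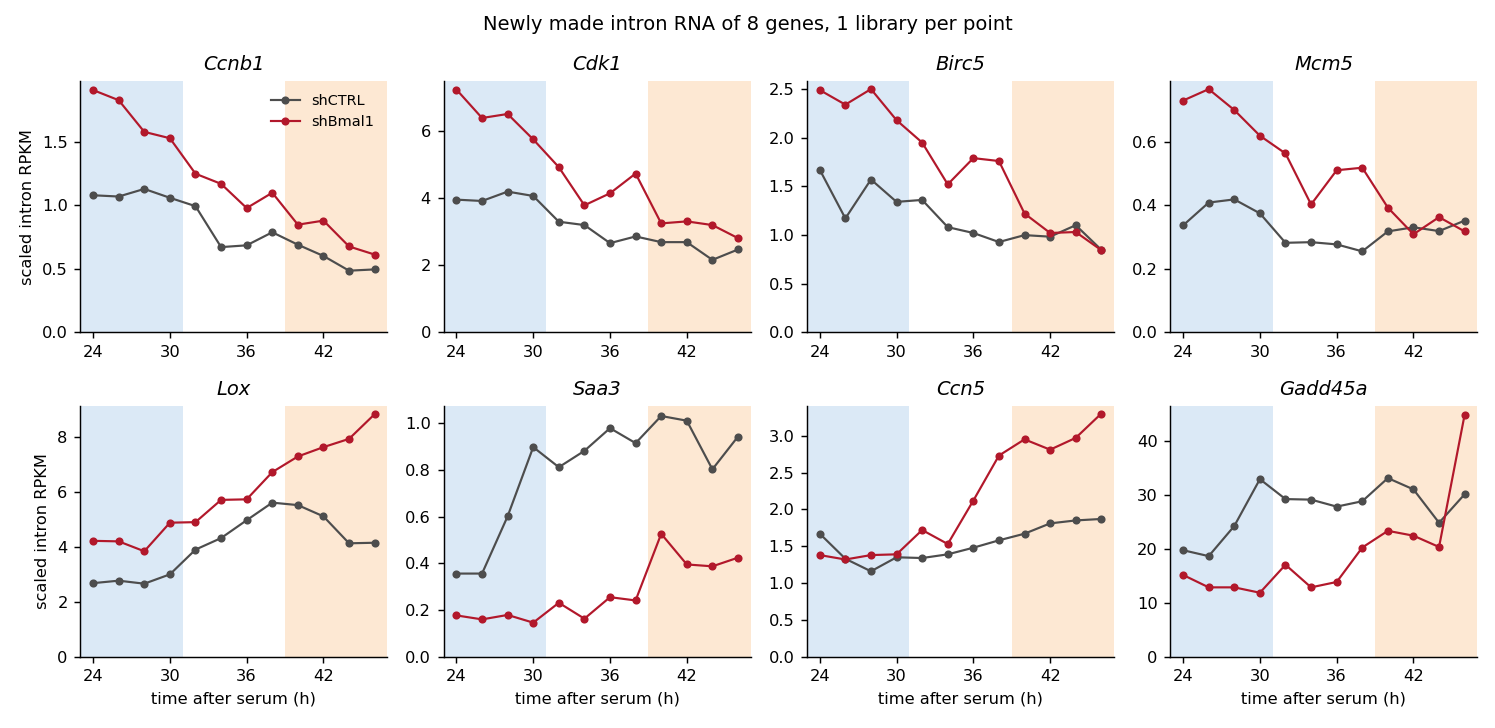
Scaled 4sU intron RPKM (vertical axes) against hours after serum (horizontal axes) for Ccnb1, Cdk1, Birc5, Mcm5, Lox, Saa3, Ccn5 and Gadd45a, 1 point per library, in shBmal1 and shCTRL, with the early and late windows shaded. Ccnb1 in shBmal1 runs from 1.91 at 24 h to 0.612 at 46 h, whereas Mcm5 in shCTRL stays between 0.318 and 0.419 in the shaded windows.

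Other mitotic genes fell to a similar degree. Tacc3, which binds spindle microtubules, was between 2.39 and 2.86 RPKM early and between 1.03 and 1.27 late (-1.17 ± 0.10). Plk1, a kinase active from mitotic entry to cytokinesis, was at 2.02 to 3.18 RPKM early and 0.742 to 1.36 late (-1.16 ± 0.18). Ube2c, the ubiquitin-conjugating enzyme of the anaphase-promoting complex, was at 2.31 to 3.36 and then 0.855 to 1.54 RPKM (-1.17 ± 0.17), and Ckap2, a spindle-associated protein, at 0.899 to 1.01 and 0.288 to 0.485 RPKM (-1.17 ± 0.14). None of these 4 genes had overlapping windows. The members of smallest p in the list also included Ccna2, cyclin A2 (-1.07 ± 0.09), Tpx2, which activates Aurora A at the spindle (-0.86 ± 0.08), and Ect2, which starts the cleavage furrow (-0.95 ± 0.09). Chosen after their values were seen, Top2a, which untangles chromosomes (-0.99), Cenpe, a kinetochore motor (-1.13), Bub1b, a spindle checkpoint kinase (-1.01), and Cdc25c, the phosphatase that activates Cdk1 (-1.10), were also called lower. Among the 12 largest falls were also the kinesin gene Kif20b (-1.15 ± 0.10), Arhgef39 (-1.16 ± 0.12) and Ankle1 (-1.17 ± 0.22).

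The largest fall among the named genes was that of Prl2c2, proliferin, a secreted protein of the prolactin family made by growing mouse fibroblasts. It was at 0.499, 0.782, 0.363 and 0.556 RPKM early and at 0.103, 0.104, 0.117 and 0.151 RPKM late. The windows were well apart, a 4.01-fold fall (-2.00 ± 0.22, adjusted p = 0.000234), and the change in shCTRL was -1.34. Prl2c2 has a near-identical neighbour, Prl2c3, and how the reads were divided between them is uncertain. Gm9752, the other large fall (-1.28 ± 0.32, adjusted p = 0.0382), rested on 2 to 12 reads per library, and its call was lost in 5 of the 8 fits that each left out 1 library.

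Time point by time point, the G2/M list declined through the whole series. Its median deviation from each gene's mean over the line's 12 libraries was 0.57, 0.47, 0.42 and 0.40 on the log2 scale at 24 to 30 h. It passed 0.14, 0.06, -0.07 and 0.02 at 32 to 38 h and was -0.33, -0.44, -0.47 and -0.76 at 40 to 46 h. The lowest library was thus the last, and without it the late minus early median was -0.90. In shCTRL, 25 of the 28 were called lower (1.95% of all genes were), with a median of -0.62. The list began higher in shBmal1, where the early level was above that of shCTRL in 28 of 28 genes by a median of 0.51 (log2). The late level was above it in 22 of 28 by a median of 0.18. These cross-line levels rest on the median scaling, and the same count over all genes was not made. In bulk RNA, fewer cells in a phase and less RNA per cell cannot be told apart.

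**Figure D2:**
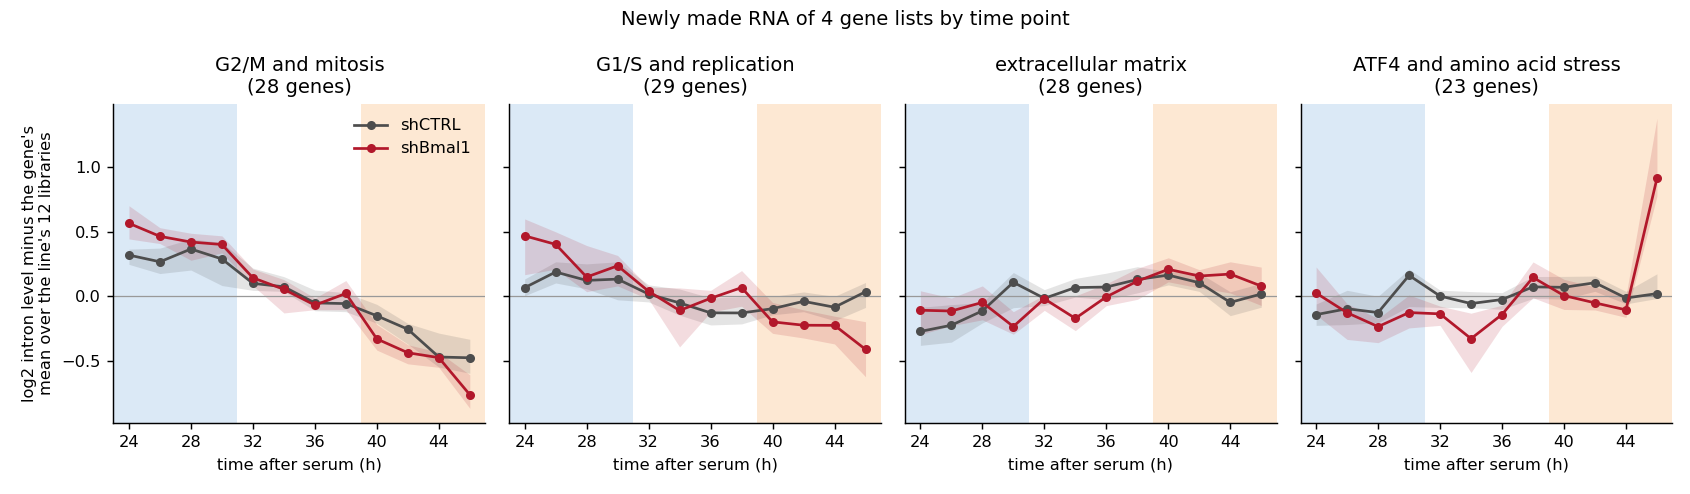
Median (line) and quartiles (band) of the log2 deviation of 4sU intron RPKM from each gene's mean over the 12 libraries of its line, against hours after serum, for the G2/M, G1/S, extracellular matrix and ATF4 lists in both lines, with the early window shaded blue and the late window orange. The G2/M median in shBmal1 falls from 0.57 at 24 h to -0.76 at 46 h, and the ATF4 median in shBmal1 stands at 0.91 at 46 h.

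Replication genes fell less evenly. Of 29 tested genes of the G1/S and replication list, 16 were called lower and none higher, against 3.88% and 1.35% of all genes. All 29 changes were negative, from -1.03 to -0.04, with a median of -0.52. The call of 16 went down to 10 when 26 h was left out. Mcm5, a subunit of the replicative helicase, was at 0.731, 0.767, 0.701 and 0.620 RPKM early and 0.393, 0.309, 0.363 and 0.318 RPKM late. The windows were apart (-0.99 ± 0.11, adjusted p = 0.000266). Mcm3, another helicase subunit, went from 1.64, 1.45, 1.35 and 1.21 to 0.760, 0.766, 0.635 and 0.645 RPKM, again without overlap (-0.98 ± 0.11). Rrm1, the large subunit of ribonucleotide reductase, was at 0.594, 0.632, 0.526 and 0.538 RPKM and then at 0.338, 0.335, 0.321 and 0.300 RPKM, and these windows were apart too (-0.78 ± 0.08, adjusted p = 0.000169). Cdc45, which loads with the helicase, fell from 0.867 to 0.964 RPKM early to 0.432 to 0.520 late (-0.88 ± 0.08). Rrm2, the small subunit of the reductase, was, like Pcna and E2f1, chosen after its values were seen; it was at 1.97, 1.22, 1.15 and 1.03 and then 0.665, 0.833, 0.771 and 0.358 RPKM (-1.03 ± 0.24, adjusted p = 0.0250). The 24 h library was the highest and the 46 h library the lowest, and without 24 h or without 26 h the call was lost (adjusted p up to 0.0597, log2 change down to -0.77). Pcna, the sliding clamp of DNA polymerase, did not pass (-0.38, adjusted p = 0.172), nor did E2f1 (-0.04). In the promoters of the list CCAAT was present in 17 of 23 (73.9%) and TTTGAA in 8.70%. Both printed replication promoters hold a pair of CCAAT boxes, 22 and 77 bases before the start in Mcm5 and 45 and 91 bases before it in Rrm1.

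Of genes for regulators of the cell cycle lists, 4 that were lower were chosen after their values were seen; E2f1, an activator of replication genes, was not called (-0.04). Foxm1, the forkhead factor of G2/M genes, was at 1.29, 1.04, 1.01 and 1.00 RPKM early and 0.678, 0.629, 0.473 and 0.556 RPKM late. The windows were apart (-0.88 ± 0.12, adjusted p = 0.000911). Mybl2, which encodes B-Myb, changed by -0.76, and E2f7 and E2f8, repressors of the E2F family, by -0.89 and -0.88, all of them called. Foxm1 overlaps Tex52 and E2f8 overlaps Gm2788, and the labels do not say whether reads were counted by strand.

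The changes were also set against those of the control line. In shCTRL, 2 of 29 G1/S genes were called lower (1.95% of all genes were), with a median of -0.17 against -0.52 in shBmal1. The median difference between the lines was -0.38 for the G1/S list and -0.35 for the G2/M list, and -0.01 over all genes; the lists were not tested against each other. The change itself differed between the lines in 19 genes over the whole table, 7 with a higher (0.0682% of genes tested) and 12 with a lower (0.117%) late minus early change in shBmal1; 985 genes had an unadjusted p under 0.05. Of these 12, 3 were G1/S genes, Mcm5, Rrm1 and Cdc45, and 1 was a G2/M gene, Mki67. Below 0 were 28 of 29 G1/S and 28 of 28 G2/M differences, against 5295 of all 10260.

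Mcm5 in shCTRL was at 0.337, 0.409, 0.419 and 0.375 RPKM early and at 0.318, 0.331, 0.319 and 0.352 RPKM late. These windows overlapped, the early levels lay near the late levels of shBmal1, and the difference of the changes was -0.78 ± 0.14 (limma adjusted p = 0.0253). The difference was -0.60 for Rrm1 (adjusted p = 0.0258), -0.66 for Mki67, the proliferation antigen Ki-67 (0.0290), and -0.49 for Cdc45 (0.0428). Mki67 itself went in shBmal1 from 0.696, 0.722, 0.672 and 0.624 RPKM to 0.358, 0.363, 0.278 and 0.384 RPKM, without overlap. For the G1/S list the early level was above that of shCTRL in 27 of 29 genes (median log2 difference 0.42) and the late level in 16 of 29 (0.04). This count was not made over all genes. Outside these lists Hirip3, a histone-binding protein, differed by -0.92 (0.0258) and Bnip3, a mitophagy receptor named after its value was seen, by -0.67 (0.0385). A higher change in shBmal1 was found for Adamts14, a protease that trims procollagen (0.98 ± 0.16, adjusted p = 0.0253), Tmem140 (0.89, 0.0258), Fosl2, the AP-1 factor Fra-2 (0.51, 0.0294), and Il6ra, the interleukin 6 receptor (0.43, 0.0294). Fosl2 in shBmal1 was at 6.04, 5.64, 5.96 and 6.35 RPKM early and 7.97, 8.24, 8.37 and 8.90 RPKM late, whereas in shCTRL it was at 6.63 to 7.88 and 6.78 to 7.28 RPKM. Only the shBmal1 windows were apart. Of the 10 differences named by the rule for them, the calls of Adamts14 and Mcm5 were kept in all 8 fits that left out 1 shBmal1 library. Cdc45 and Bnip3 are not among these 10. The count of lower differences was 4 without 26 h, 23 without 28 h, 7 without 40 h and 1 without 44 h, the count of higher ones 13 without 24 h and 3 without 44 h, and with the time point as a block both counts were 0.

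**Figure D3:**
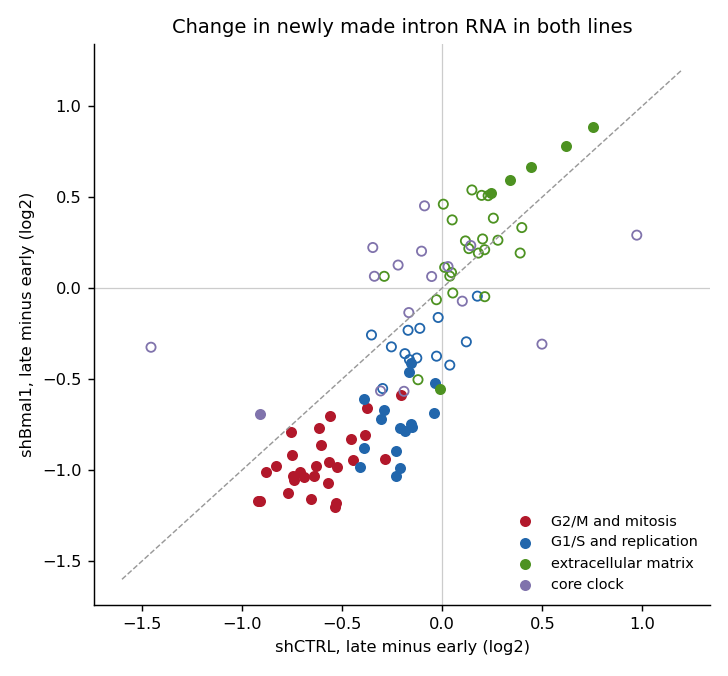
Late minus early log2 change of 4sU intron RPKM in shBmal1 (vertical axis) against shCTRL (horizontal axis) for members of the gene lists, with filled points for genes called in shBmal1, open points for the others and a dashed line of equal change. The G2/M genes lie at negative values in both lines (medians -0.98 and -0.62), and the G1/S genes at -0.52 in shBmal1 and -0.17 in shCTRL.

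Some matrix and matrix-remodelling genes were among those that rose. Of 28 tested genes of the extracellular matrix list, 5 were called higher (Lox, Thbs2, Adamts5, Col5a2 and Fbn1) and 1 lower (Col6a3). The shares over all genes were 1.35% and 3.88%. The list's median was 0.26. In 14 of the 28 the late libraries lay above all early ones, against 5.34% of all genes. Lox, lysyl oxidase, which cross-links collagen and elastin, was at 4.22, 4.20, 3.84 and 4.88 RPKM early and 7.29, 7.63, 7.93 and 8.83 RPKM late. Its windows were apart, a 1.85-fold rise (0.88 ± 0.12, adjusted p = 0.000679), and the change in shCTRL was 0.75 (adjusted p = 0.00287). The levels of the unnamed gene Gm41724 rose alongside those of Lox (2.01 to 2.52 and then 3.88 to 4.76 RPKM). On chromosome 18 the RefSeq spans do not overlap (Lox 52516060 to 52529867, Gm41724 52563614 to 52577324). Whether the 2 share reads was not tested. Thbs2, the matrix glycoprotein thrombospondin 2, was at 2.75, 2.77, 2.80 and 2.87 RPKM and then at 4.41, 4.64, 4.37 and 4.33 RPKM. The early libraries were nearly equal and the windows were apart (0.66 ± 0.09, adjusted p = 0.000672). Adamts5, an aggrecan-cleaving protease (0.78 ± 0.14), Col5a2, a chain of collagen V (0.59 ± 0.11), and Fbn1, fibrillin 1 (0.52 ± 0.10), also rose; Col5a2, Fbn1 and Fn1 were chosen after their values were seen. Col6a3, a chain of collagen VI, went the other way, from 2.33, 2.22, 2.06 and 1.91 RPKM to 1.56, 1.47, 1.49 and 1.25 RPKM (-0.56 ± 0.09, adjusted p = 0.00346). Its change in shCTRL was -0.01, and the difference between the lines was -0.54 (adjusted p = 0.0290, lost without 26 h or 44 h, adjusted p up to 0.0684). Fn1, fibronectin (0.46, adjusted p = 0.0544), and Col1a1, a chain of collagen I (0.54, adjusted p = 0.160), did not pass. In shCTRL 4 of the list were called higher (1.86% of all genes were), with a median of 0.19.

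The acute-phase gene Saa3 and the complement gene C3 also rose. Saa3, an acute-phase serum amyloid, was at 0.177, 0.160, 0.179 and 0.146 RPKM early and 0.526, 0.395, 0.387 and 0.424 RPKM late, on 29 to 104 reads per library. Each late library was far above each early one, a 2.44-fold rise (1.28 ± 0.13, adjusted p = 0.000169). In shCTRL it was at 0.356 to 0.897 RPKM early and 0.802 to 1.03 late, with overlapping windows and every library above those of the same window in shBmal1. C3, the central complement component, was at 14.3, 15.9, 19.2 and 13.8 RPKM and then at 36.3, 34.4, 35.7 and 30.4 RPKM. The windows were far apart (1.12 ± 0.14, adjusted p = 0.000519). These were the 2 called genes among 21 of the inflammatory and NF-kB list (1.35% of all genes were called higher). The list's median was 0.23, and 7 members had late libraries above all early ones, against 5.34% of all genes. Of genes chosen after their values were seen, the complement proteases C1s1 (0.53) and C1ra (0.51) and the interleukin 1 receptor gene Il1r1 (0.58) were also called higher.

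Several secreted or signalling proteins were among the 12 largest rises that met the naming rule, which left out C3 because its reads could not be resolved to 1 intron length. Ccn5, a matricellular protein of the CCN family, was at 1.38, 1.32, 1.38 and 1.39 RPKM early and 2.95, 2.81, 2.97 and 3.30 RPKM late. The early libraries were almost level, and the rise was 2.18-fold (1.13 ± 0.14, adjusted p = 0.000550; shCTRL 0.39, adjusted p = 0.0362). Adm, the vasodilator peptide adrenomedullin, went from 1.42 to 1.79 RPKM early to 3.17 to 3.63 late (1.01 ± 0.16). Lrrn4cl was at 0.446, 0.932, 0.491 and 0.814 RPKM and then at 1.51 to 1.64, on 16 to 67 reads (1.27 ± 0.19). Sphk1, which makes sphingosine 1-phosphate, rose from 1.63 to 2.65 RPKM early to 3.11 to 4.37 late (0.88 ± 0.21, adjusted p = 0.0307), whereas Zfp36, which directs decay of AU-rich mRNAs, was between 0.715 and 1.42 RPKM early and between 1.57 and 2.58 late (0.87 ± 0.23, adjusted p = 0.0487). Each of these last calls was lost in 6 of the 8 fits that left out 1 library, with changes of 0.78 to 1.01 for Sphk1 and 0.69 to 1.02 for Zfp36. Gm16263 (0.87 ± 0.12) and Gm15851 (0.86 ± 0.12) complete the 12 with E230016M11Rik (0.84 ± 0.19), which overlaps Gadd45a. Of the called higher genes 6 belong to the Ugt1a cluster (9 tested), whose genes share their span, so they are uncertain as separate genes.

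Gadd45a, a stress-induced gene of growth arrest and a p53 target, was at 15.2, 12.9, 12.9 and 11.9 RPKM early and at 23.4, 22.5, 20.4 and 45.0 RPKM late. The windows were apart, with 46 h far above the other late libraries (1.00 ± 0.23, adjusted p = 0.0206). Without 46 h the change was 0.75 and the call held; without 26, 28 or 30 h it was lost (adjusted p up to 0.0619). Some other p53 targets moved the other way. Mdm2, the ligase that degrades p53, was at 8.35, 6.80, 6.90 and 8.48 RPKM and then 4.83, 4.61, 4.96 and 3.51 RPKM, without overlap (-0.77 ± 0.13, adjusted p = 0.00266). Btg2, an antiproliferative factor, changed by -0.73 (adjusted p = 0.0361, lost in 6 of 8 such fits, -0.62 to -0.85) and Eda2r, a TNF-family receptor, by -0.60. In all, 1 of 18 tested p53 targets was called higher and 3 lower, against 1.35% and 3.88% of all genes. Of the 18 changes 7 were positive and 11 negative, with a median of -0.20.

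Of 16 core clock genes tested, none was called higher and 1, Per2, lower, against 1.35% and 3.88% of all genes, and the median was 0.06; with so few genes these shares are close to the background. Arntl itself was at 0.495, 0.630, 0.650 and 0.963 RPKM early and at 0.803, 0.854, 0.856 and 1.2 RPKM late. The windows overlapped (0.45, adjusted p = 0.179). Per2, a repressor of Bmal1 and Clock, was at 0.480, 0.504, 0.369 and 0.330 RPKM and then 0.204, 0.225, 0.223 and 0.372 RPKM. The windows overlapped through 46 h (-0.69 ± 0.17, adjusted p = 0.0337), and the call was lost in 5 of the 8 fits that left out 1 library (-0.60 to -0.87, adjusted p up to 0.113). Per3 (-0.57, adjusted p = 0.161), Bhlhe41 (-0.57, 0.301), Cry1 (-0.33, 0.186), Nr1d1 (0.29, 0.301), Nr1d2 (-0.31), Cry2 (0.22) and Clock (-0.07) did not pass. In shCTRL, Cry1 was called lower (-1.46 ± 0.29, adjusted p = 0.0127) and Nr1d1 higher (0.97, adjusted p = 0.0141); the differences between the lines were 1.13 (adjusted p = 0.165) and -0.68 (0.323) and did not pass. The windows lie a mean of 16 h apart, so a daily rhythm enters this contrast at unequal phases. Of 15 clock output genes, Wee1, the kinase that holds Cdk1 inactive, fell from 0.505 to 0.550 RPKM early to 0.252 to 0.302 late (-0.84 ± 0.13, adjusted p = 0.00143), and by a like amount in shCTRL (-0.86). Tef, a D-box factor, changed by -0.52 and Klf9, a Krüppel-like factor, by 0.55; these 2 calls were lost in 6 and 3 of the 8 such fits (-0.39 to -0.63 and 0.41 to 0.63).

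**Figure D4:**
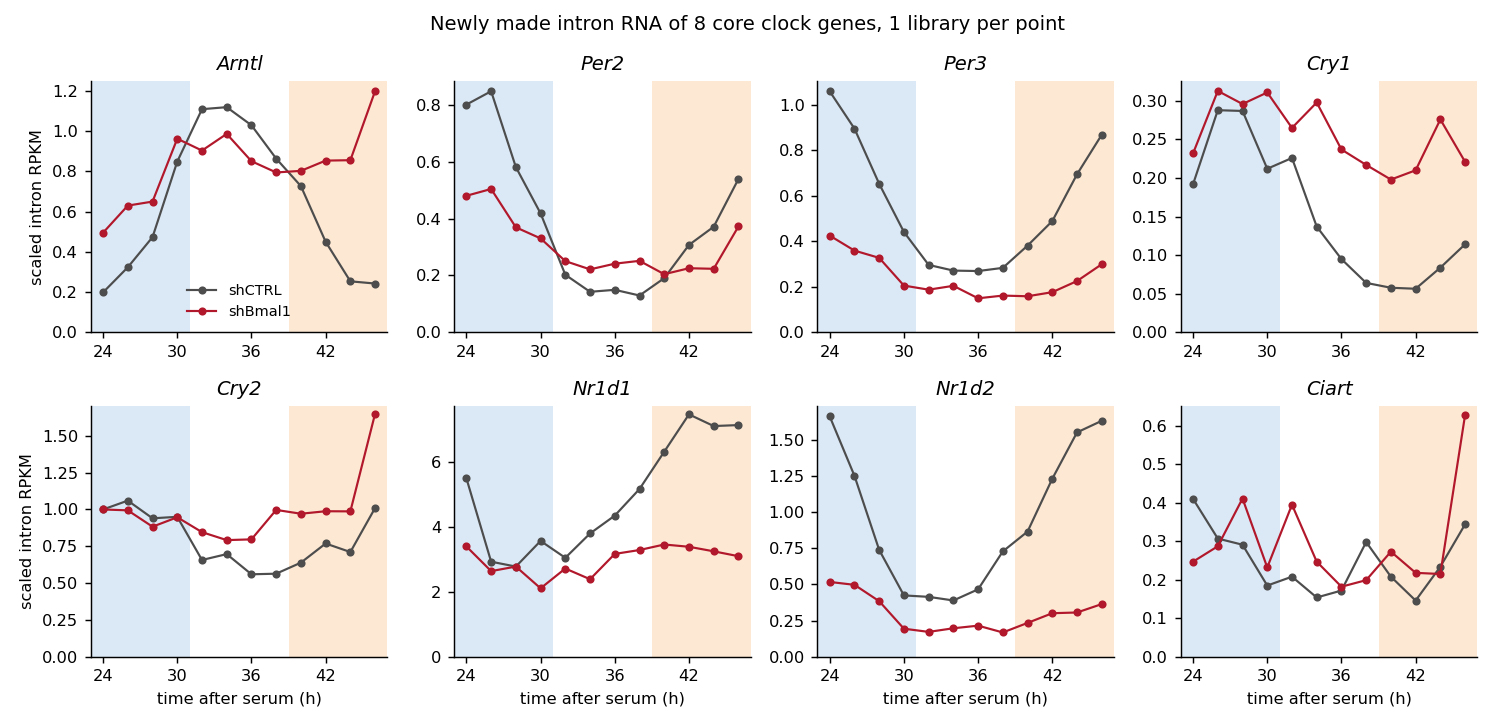
Scaled 4sU intron RPKM (vertical axes) against hours after serum for Arntl, Per2, Per3, Cry1, Cry2, Nr1d1, Nr1d2 and Ciart, 1 point per library, in shBmal1 and shCTRL, with the windows shaded. In shBmal1 the early and late points of Arntl overlap (0.495 to 0.963 and 0.803 to 1.2), and the 46 h point of Per2 (0.372) lies above its other late points.

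The ATF4 and amino acid stress list turned on the last library. ATF4 is the transcription factor that cells make when amino acids run short or proteins misfold, and its targets import and make amino acids. Of 23 tested genes 1, Nupr1, was called higher (0.70, limma adjusted p = 0.0323), against 1.35% of all genes, and the median was 0.36. Without 46 h the median was 0.06 and the Nupr1 call was lost. That call was also lost without 26, 28, 30 or 40 h (0.55 to 0.78). At 46 h the list's median deviation was 0.91, against -0.33 to 0.15 in the other 11 shBmal1 libraries, and 22 of 23 genes had their highest level there. The same held in the other 3 readouts of the 46 h culture, with 0.69 in 4sU exons, 0.70 in total introns and 0.44 in total exons, and 22, 21 and 20 of 23 genes at their highest. In shCTRL at 46 h the 4sU intron median was 0.02, and 5 of 23 were highest there. Chac1, a glutathione-degrading enzyme and ATF4 target, was at 10.6 RPKM at 46 h and at 2.23 to 2.43 RPKM in the other late libraries. Without this library the medians of the cell cycle and matrix lists were -0.90 (G2/M), -0.44 (G1/S) and 0.26 (extracellular matrix).

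The remaining lists held few calls. Of all genes 1.35% were called higher and 3.88% lower, so no call or 1 call in a list this small is close to that background. Whether any of these lists departs from it was not tested. None was called among 36 ribosomal protein, 29 oxidative phosphorylation, 34 autophagy and lysosome, 21 unfolded protein response and 14 heat shock genes. In the immediate early list (20 tested) Fosl2 was called higher, and in the TGF-beta and BMP list (21) the signal transducer Smad3 (0.43) and its inhibitor Smad6 (0.44). In the cholesterol and fatty acid list (26) the sterol dehydrogenase Nsdhl (-0.39) and the acetyl-CoA synthetase Acss2 (-0.28) were called lower. Acss2 overlaps Acss2os, which was also called lower, so it is uncertain as a separate gene. The late libraries of 11 members of the list lay below all early ones, against 8.1% of all genes, and the list's median was -0.27. The glycolytic enzyme Pgk1 (-0.55 ± 0.10, adjusted p = 0.00623; 1 of 22), the tropomyosin Tpm2 (-0.57; 1 of 17 actin and SRF targets), the quinone reductase Nqo1 (-0.55; 1 of 22 NRF2 genes) and the polymerase subunit Polr2b (-0.32; 1 of 41) were called lower. Stat3 (0.30; 1 of 15 interferon genes) and Pik3ip1, an inhibitor of PI3 kinase (0.56; 1 of 21 FOXO and insulin genes), were called higher, and of 45 mRNA decay genes Zfp36 and the deadenylase Cnot7 (0.31) rose and Btg2 fell. None of the 9 tested fibroblast markers was called. Ccnd2, cyclin D2, chosen after its value was seen, was called higher (0.53, adjusted p = 0.0477). The calls of Smad6, Nsdhl, Acss2, Tpm2, Nqo1, Polr2b, Stat3, Pik3ip1, Cnot7 and Ccnd2 were each lost when at least 1 library was left out, of Cnot7 in all 8 such fits; over all named genes 55 of 77 calls were kept in all 8.

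The same direction was found in other readouts of these cultures. The total RNA libraries did not choose the genes, whereas the 4sU exon values come from the same libraries that made the calls. Of the 398 genes that fell in 4sU introns, 394 were tested in total exons, the standing RNA level, and 282 were called lower there (71.6% of these and 26.8% of the 1054 genes called lower; 9.67% of the 10904 tested), with a median of -0.53. Of 137 that rose, 102 were called higher (74.5%, and 12.4% of 821; 7.53% of those tested), with a median of 0.44. On the total exon RPKM as deposited, 1786 genes were called lower and 526 higher. In total introns 295 of 372 were lower (79.3%, and 31% of 952; 9.57% of the 9952 tested) and 93 of 132 higher (70.5%, and 11.3% of 823; 8.27%); as deposited, 622 were called lower and 1132 higher. In 4sU exons 227 of 396 were lower (4.26% of the 10170 tested) and 79 of 137 higher (2.57%), with medians of -0.58 and 0.46; as deposited, 608 genes were called lower and 170 higher. With 1 library left out, total exons had 519 higher calls without 24 h and without 44 h; total introns had 504 higher and 585 lower calls without 24 h and 535 higher without 42 h. In 4sU exons the higher calls were 113, 123, 115, 90 and 128 without 26, 40, 42, 44 and 46 h, and the lower calls 251, 265, 238 and 269 without 26, 42, 44 and 46 h. Total and labelled RNA came from the same cultures, so the total RNA readouts repeat the measurement and not the cultures. The 4sU exon values do not repeat the libraries either.

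By list, total exons gave 27 of 28 G2/M genes lower (median -0.89), 22 of 29 G1/S genes lower (-0.74) and 17 of 28 matrix genes higher with 2 lower (0.38). Calls were also more frequent over all genes in total exons than in 4sU introns (9.67% against 3.88% lower and 7.53% against 1.35% higher), and whether the lists differ from that was not tested. The total exon level of Ccnb1 was 9.41 ± 1.26 RPKM early and 4.85 ± 0.41 late (SD over 4 time points). C3 rose from 108 ± 15.8 to 312 ± 17.9 RPKM and Saa3 from 8.68 ± 2.57 to 31.4 ± 4.52 RPKM. In the inflammatory list 11 of 21 genes were called higher in total exons, against 2 in 4sU introns.

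**Figure D5:**
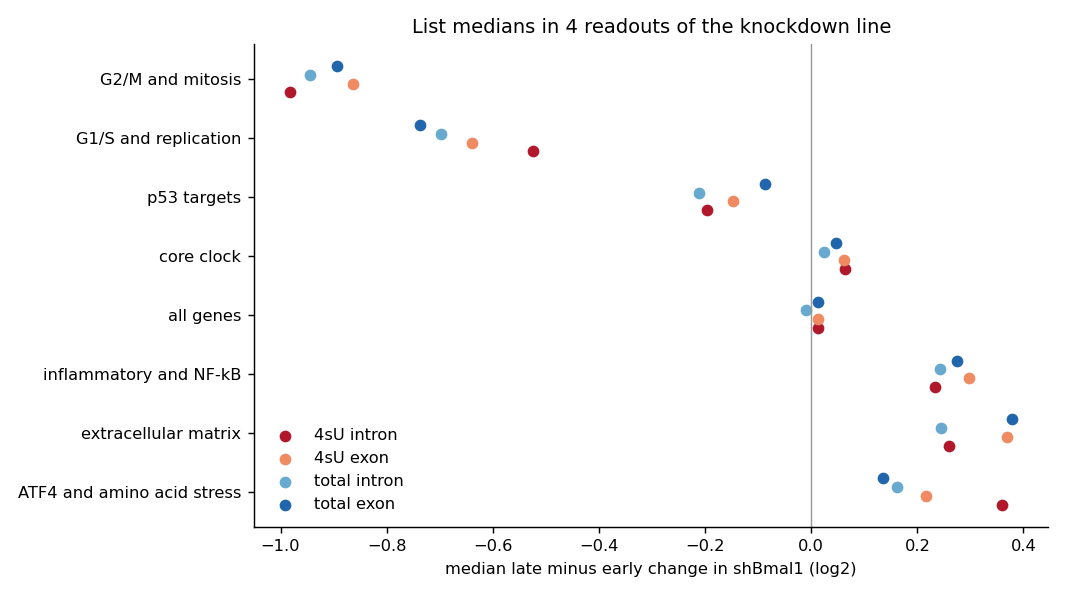
Median late minus early log2 change in shBmal1 (horizontal axis) of 7 gene lists and of all genes (rows) in 4sU introns, 4sU exons, total introns and total exons, 1 point per row and readout. The G2/M list lies between -0.98 and -0.86 and the G1/S list between -0.74 and -0.52 in the 4 readouts.

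The 2 sets of changed genes differed in length. The median RefSeq length was 43000 bases for genes that rose and 20500 for genes that fell, and no median was taken over all tested genes. The share called higher was 0.554% at 3 to 10 kb and 4.26% over 300 kb (all genes 1.35%). The share called lower was 3.98% to 4.85% from 3 to 100 kb (all genes 3.88%). It was 1.39% under 3 kb, 0.584% at 100 to 300 kb and 1.06% over 300 kb. Over all tested genes the median change went from -0.03 at 3 to 10 kb to 0.18 over 300 kb (94 genes). In shCTRL the latter was 0.24. Single shBmal1 libraries also differed in the log2 level of long minus short genes, from -0.402 (24 h) to 0.0716 (30 h) early. The late values were -0.148 (40 h) to 0.116 (44 h), and the value was 0.504 at 34 h and -0.377 at 38 h. The part of this in the length trend was not tested. Cell cycle genes were lower in each bin that held them, with medians of -0.85 (3 to 10 kb, 14 genes), -0.71 (10 to 30 kb, 26 genes) and -0.91 (30 to 100 kb, 16 genes). In shCTRL, 118 of the 398 genes that fell were called lower (29.6%, and 59.0% of its 200), against 1.95% of all genes. Their shCTRL median was -0.26, and 373 had the same sign. Of the 138 that rose, 25 were called higher in shCTRL (18.1%, and 13.1% of its 191), against 1.86% of all genes. Their shCTRL median was 0.18, and 114 had the same sign. The share of all genes with the same sign in both lines was not counted.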

How the data were processed

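RPKM tables of intron and exon reads were deposited by the authors for total and 4sU RNA, 1 column per library. Per the submitters' processing notes, the tools were Trim Galore and HOMER 4.11.1 and the build was mm10, or GRCm38.p6. No aligner is named in the sources used here, and they do not say whether counting used strand. Per the labels' protocols, libraries were paired-end, strand-specific and depleted of rRNA. The members, gene lists and motifs were chosen with earlier results of these data known. RPKM was scaled within each table by the median ratio of a library to the geometric mean library and tested as log2(scaled RPKM + 0.02) for introns, + 0.1 for exons, with limma 3.58.1 in R 4.3.3 (trend and robust), on window means of the line's 12 libraries, or the 24 4sU libraries for the difference between lines. Fold changes are on that scale, which understates changes of low genes. The filter was a mean of 0.1 RPKM for introns and 0.5 for exons; p-values were Benjamini-Hochberg adjusted over all genes tested, with 0.05 as threshold.

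Whole reads were recovered from the steps of the low RPKM values, within 0.02 reads, for 97.0% of the genes of the shBmal1 4sU intron table. They were used for depth and for the condition of 1 intron length, and not for the tests of change. Named genes were the 12 largest calls in each direction with windows apart, 1 intron length and at least 0.2 RPKM in the higher window, up to 6 per direction in the difference between lines, every core clock gene except 1 that is not reported here, the 4 of smallest p per list, and those said to be chosen later. Spike-ins were not analysed here, so changes are relative to the median gene. Nothing in the labels gives a batch. The scaling, pseudocounts, filters, windows, libraries and model settings were varied.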

Additional observations from a re-analysis of the deposited data

Results flagged for a closer look

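In 29 of 314 window values checked (157 named genes, 2 windows), the highest or lowest of the 4 libraries stood apart from the other 3 by more than Dixon's 95% value; chance flags about 1 in 20 such groups. The 46 h library held 14 of the 29 and the 24 h library 5. All values that follow are scaled 4sU intron RPKM in shBmal1.

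At 46 h the level was above the other late libraries for Gadd45a (45.0 against 20.4 to 23.4) and the overlapping E230016M11Rik (1.00 against 0.476 to 0.534). Stress and growth response genes stood high there as well, namely Chac1 (10.6 against 2.23 to 2.43), Atf5 (12.3 against 10.7 to 10.9), Sars (4.40 against 2.82 to 2.88), Atf3 (0.385 against 0.119 to 0.127) and Myc (8.59 against 3.94 to 4.52). So did 4 core clock genes, Arntl (1.2 against 0.803 to 0.856), Per2 (0.372 against 0.204 to 0.225), Cry2 (1.65 against 0.971 to 0.988) and Ciart (0.628 against 0.215 to 0.273), and the genes Adamts14 (0.529 against 0.387 to 0.399) and Ccnd2 (2.67 against 1.66 to 1.78). Cdc45 was low at 46 h (0.432 against 0.506 to 0.520).

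At 24 h Hspa8 (15 against 6.60 to 7.50), Hsp90aa1 (0.541 against 0.362 to 0.382), Rps14 (12.1 against 6.61 to 7.39) and Foxm1 (1.29 against 1.00 to 1.04) were high and Atf6 (0.104 against 0.129 to 0.132) was low. At 26 h Hnrnpa2b1 was high (9.21 against 7.10 to 7.32) and Ccn5 low (1.32 against 1.38 to 1.39). Ccna2 was low at 28 h (2.41 against 2.72 to 2.77), and Ccl2 (44 against 51.8 to 52.0) and Cd68 (1.67 against 2.22 to 2.32) were low at 30 h. At 40 h Ccn2 (0.285 against 0.0914 to 0.115) and Pcna (1.29 against 1.13 to 1.15) were high, at 42 h Adm was high (3.63 against 3.17 to 3.22) and B2m low (2.55 against 2.84 to 2.89), and at 44 h Hirip3 was low (1.36 against 1.68 to 1.75).

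Leaving aside Cdc45 and Bnip3, the late minus early change differed between the lines in 10 named genes (limma, adjusted p 0.0253 to 0.0294, shBmal1 minus shCTRL, log2). All 10 lost the call with the time point as a block (0 calls over all genes). The change was higher in shBmal1 for Adamts14 (0.98), Tmem140 (0.89), Fosl2 (0.51) and Il6ra (0.43). It was lower for Hirip3 (-0.92), Mcm5 (-0.78), Mki67 (-0.66), Rrm1 (-0.60), Col6a3 (-0.54) and Gm4876 (-0.51), the last of which overlaps Tes.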

How the results depend on the processing

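The labels give no replicate numbers, but both lines were sampled at the same time points; paired by time point (a replicate block), the difference between lines had 0 higher and 0 lower calls. The 398 lower and 138 higher calls in shBmal1 4sU introns became 88 higher as deposited, 154 and 72 at a filter of 0.5 RPKM (fewer genes tested; 14 G2/M and 6 G1/S genes lower), 665 and 394 with all 24 libraries (9 matrix genes higher), 148 and 54 for 36 to 46 h against 24 to 34 h (5 G1/S genes lower), and 1027 and 640 with the share of the 5 highest genes as a covariate, chosen after seeing the data (10 matrix genes higher). Differences between lines numbered 7 lower as deposited, 19 lower and 13 higher by upper quartile scaling, 11 higher at a pseudocount of 0.1, and 5 lower at the 0.5 filter. As deposited, 4sU exons had 170 higher, total exons 1786 lower and 526 higher, and total introns 622 lower calls; the median was -0.0287 over all genes and -0.0633 over mRNA decay genes (0.0125 and -0.024 scaled). Except where given, the cause was not tested.

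Leaving out 1 library gave 58 to 133 higher and 267 to 359 lower calls, 27 to 28 G2/M, 10 to 15 G1/S and 5 to 6 matrix calls. Differences numbered 3 to 13 higher and 1 to 23 lower. 4sU exons gave 90 to 300 higher and 238 to 466 lower calls, fewest without 44 h. Total exons gave 519 to 960 and 707 to 1256, and total introns 504 to 964 and 585 to 1200, fewest without 24 h; total exon higher calls were also 519 without 44 h.

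Sign changed only in changes that were not called. With 1 library left out these ranged from -0.273 to 0.228 (Ciart), -0.524 to 0.0282 (Cd14), -0.238 to 0.0119 (Plin4), -0.103 to 0.0383 (E2f1), -0.195 to 0.18 (Lyz2) and -0.000849 to 0.211 (Per1), and for 36 to 46 h against 24 to 34 h they were -0.179 (Ciart), 0.0487 (Plin4), 0.123 (Mymx) and 0.0376 (E2f1). Genes with few intron reads, such as Gm9752, limit what depth can show.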
